A study of Mus musculus with 93 samples.

Results

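A group of 10 circadian clock genes was followed in the liver of 93 mice. They were Arntl, Npas2, Per1, Per2, Per3, Cry1, Nr1d1, Nr1d2, Dbp and Ciart, found by matching each symbol to its Ensembl identifier among the 53465 genes of the count table. All 10 were found, and all 10 passed the filter on low counts that left 19110 genes for testing. The mice were males of 7 inbred strains, the classical laboratory strains A/J, C57BL/6J, 129S1/SvImJ and DBA/2J and the wild-derived strains CAST/EiJ, PWK/PhJ and WSB/EiJ. The labels name no transgene and no targeted deletion in any of them, and all mice were housed at thermoneutrality (TN, 30 °C) from 6 wk of age with 12 h of light. From 7 wk of age, 48 mice were fed a Western diet (WD-TN) with 40% of its energy from fat, 43% from carbohydrate and 17% from protein, and 45 mice were fed a control diet (CD-TN) with 10%, 73% and 17%. After 17 wk of diet, at 24 wk of age, livers were perfused and taken following a 4 h fast in the morning, and RNA of whole liver was sequenced. The 14 groups of strain and diet held 5 to 8 mice each, and every strain was raised in 2 or 3 of 7 numbered cohorts.

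The clock of the liver is a feedback loop of transcription that runs in almost every cell. Arntl (also called BMAL1) pairs with Clock or Npas2 to form the activating complex, which binds E-boxes and drives the Per and Cry genes, Nr1d1, Nr1d2, Dbp and Ciart. The PER and CRY proteins and CIART in turn repress that complex, while NR1D1 and NR1D2 (the REV-ERB nuclear receptors) repress Arntl and Npas2 through response elements shared with the ROR receptors. DBP is a transcription factor that binds D-boxes and passes the rhythm on to metabolic genes. Because of this loop, Arntl and Npas2 peak at a phase opposite to Dbp, Nr1d1 and the Per genes, and feeding is a strong time cue for the clock in the liver.

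All livers were taken in the afternoon, within a window of 2.5 h, but the hour of each mouse is in none of the labels and neither is the hour at which the lights came on. A difference in the hour of collection between groups or cohorts therefore cannot be told apart from a difference by diet, strain or cohort in any of the values that follow. The values are a single time point per mouse, and no rhythm, phase or amplitude was measured.

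The genes lie on 7 chromosomes of GRCm38. The activators are Arntl at chr7:113207465-113314126 on the plus strand and Npas2 at chr1:39193731-39363236 on the plus strand. The repressors of the period and cryptochrome families are Per1 at chr11:69095217-69109960 (plus), Per2 at chr1:91415982-91459324 (minus), Per3 at chr4:151003652-151044665 (minus) and Cry1 at chr10:85131700-85185064 (minus). Nr1d1 lies at chr11:98767932-98775333 (minus), Nr1d2 at chr14:18204054-18239127 (minus), Dbp at chr7:45705088-45710203 (plus) and Ciart at chr3:95878503-95882251 (minus). All 10 are annotated as protein-coding. Part of the exons of 3 genes overlaps a gene on the other strand, namely 8.55% of the exon bases of Nr1d1 (with Thra), 18.01% of those of Dbp (with Sphk2) and 0.44% of those of Arntl (with Gm45355), and since the strand setting of the counting is not given in the sources used here, reads in these stretches cannot be assigned with certainty.

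The windows around the start sites of 5 of the genes hold the letters of elements known from the loop. Start-site windows, with 250 bases before the start and 50 from it on, were taken from RefSeq (GRCm38.p6) for the 9 genes that had one (11 windows), and both strands were searched for 4 kinds of motif. The E-box CACGTG was found in Ciart, Cry1 and Per1, and in 7.15% of all 32851 windows. The D-box, searched as TTATGTAA or TTACGTAA, was found in Per3 and in 1.06% of all windows. The core of the ROR response element, searched as TAGGTCA or TGGGTCA, was found in Arntl and in 6.45% of all windows, and the cyclic AMP response element TGACGTCA was found in none of the 9 genes and in 1.79% of all windows. The stretches that hold these motifs are printed below from 5′ to 3′ on the strand of the gene, with the motif in capitals. The activators, the D-box factors and the REV-ERB receptors are known to bind motifs of these kinds. A match is a description of the letters, and binding was not measured.
Ciart, chr3:95882258-95882353, minus strand, 3 E-boxes: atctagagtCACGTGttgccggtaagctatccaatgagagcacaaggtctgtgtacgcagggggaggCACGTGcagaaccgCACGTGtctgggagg
Cry1, chr10:85185100-85185123, minus strand, 1 E-box: gccggtggtCACGTGgggtgcatg
Per1, chr11:69098774-69098797, plus strand, 1 E-box: acccaagtcCACGTGcagggatgt
Per3, chr4:151044807-151044879, minus strand, 2 D-boxes: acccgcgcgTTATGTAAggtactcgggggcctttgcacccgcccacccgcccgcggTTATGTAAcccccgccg
Arntl, chr7:113207532-113207555, plus strand, 1 ROR element core: ggcagaaagTAGGTCAgggacgga

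The clock genes differed widely in level, with the repressors of Arntl and the output gene at the top and the activators at the bottom. Per kilobase of exon, the median over 93 mice was 30.1 CPM for Nr1d1 (CPM being reads on a gene scaled to an equal library size), 24.0 for Dbp and 19.6 for Nr1d2. Levels per kilobase were intermediate for Per2 (6.31), Per1 (5.24), Ciart (4.28), Per3 (4.13) and Cry1 (3.07). Arntl (0.601) and Npas2 (0.181) were lowest. The values below are CPM, with no division by length, and they compare mice and not genes.

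The range over mice was wide for several of the genes. From the lowest to the highest mouse, Dbp spanned 181-fold, Npas2 172-fold and Ciart 135-fold, against 10.7-fold for Nr1d2 and 9.87-fold for Cry1. Low counts add to the spread of Npas2, for which single mice had between 4 and 1060 reads, and of Ciart, with between 13 and 1410 reads. Reads on genes numbered 40020424 to 49894856 per mouse (median 46618609), so that even Npas2 was counted in every liver. In the plot of levels by mouse, the C57BL/6J mice on CD-TN spread over most of the range of Arntl, Npas2, Per3, Dbp and Ciart.

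**Figure D1:**
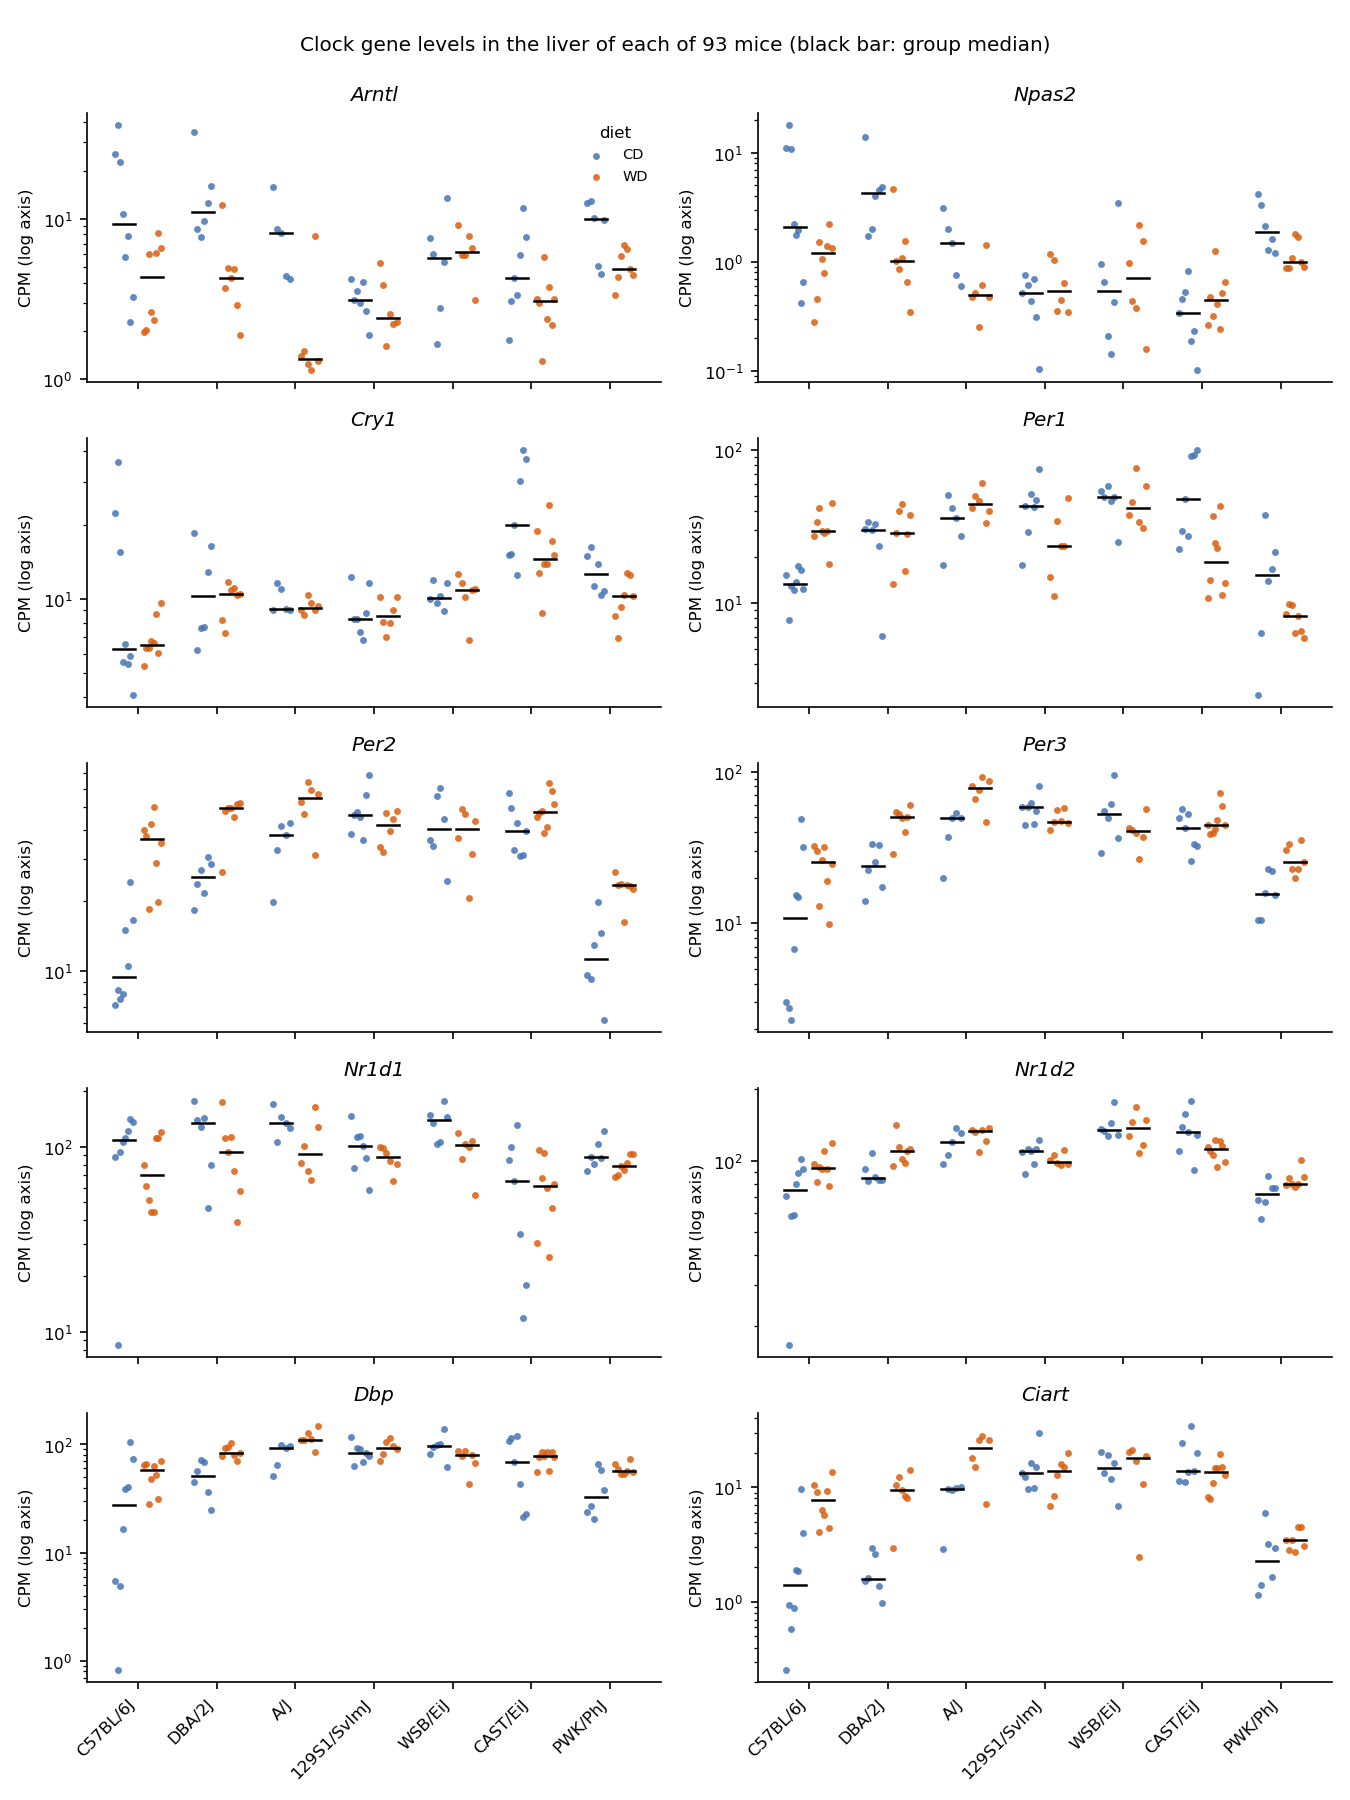
Level of each of the 10 clock genes in the liver of each of 93 mice, in CPM on a log axis, by strain and diet; each point is 1 mouse and the black bar is the median of its group. The C57BL/6J mice on CD-TN run from 0.823 to 104 CPM for Dbp and from 2.28 to 38.4 CPM for Arntl.

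Averaged over the 7 strains with equal weight, Arntl was lower on WD-TN than on CD-TN, and Per2, Per3, Dbp and Ciart were higher. The test was limma-voom with Benjamini-Hochberg adjustment over all 19110 genes, and a gene was called at an adjusted p below 0.05. Arntl fell by 0.90 ± 0.19 on the log2 scale (SE, adjusted p = 5.19e-05). Ciart rose by 0.81 ± 0.17 (adjusted p = 3.9e-05), Per2 by 0.56 ± 0.08 (2.45e-08), Dbp by 0.56 ± 0.16 (0.00252) and Per3 by 0.52 ± 0.12 (0.000141). Npas2 (−0.63 ± 0.28, adjusted p = 0.0543), Cry1 (−0.23 ± 0.10, 0.0538), Nr1d1 (−0.24 ± 0.14, 0.158), Per1 (−0.13 ± 0.14, 0.480) and Nr1d2 (0.12 ± 0.06, 0.107) did not pass. Of all genes tested, 51.6% passed the same test, so 5 of 10 clock genes is near the background. With edgeR's quasi-likelihood test, Dbp was not called (0.33, adjusted p = 0.0548), and Npas2 (−0.81, 0.00187), Cry1 (−0.31, 0.00739) and Nr1d1 (−0.30, 0.0398) were called lower. DESeq2 and limma-voom with sample quality weights also called these 3.

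The number of clock genes called differed between the strains, which by itself does not show that their diet effects differed. In C57BL/6J, 8 of the 10 clock genes differed between the diets, where 26.2% of all genes were called. The numbers were 5 for DBA/2J (18% of all genes), 2 for A/J (9.03%), 1 for CAST/EiJ (19.5%) and 1 for PWK/PhJ (29.6%). No clock gene was called in 129S1/SvImJ (0 of 10, 28% of all genes) or WSB/EiJ (0 of 10, 8.94%). The largest share of genes overall did not go with the largest number of clock genes, since PWK/PhJ and 129S1/SvImJ had the highest backgrounds. At an unadjusted p below 0.05, 1 clock gene (Per1) passed in 129S1/SvImJ and 0 in WSB/EiJ, and edgeR and DESeq2 each called 0 in these strains. The shares of all genes for these counts are not given here. The map of diet effects has a star in at least 1 strain for every clock gene except Cry1 and Nr1d1.

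**Figure D2:**
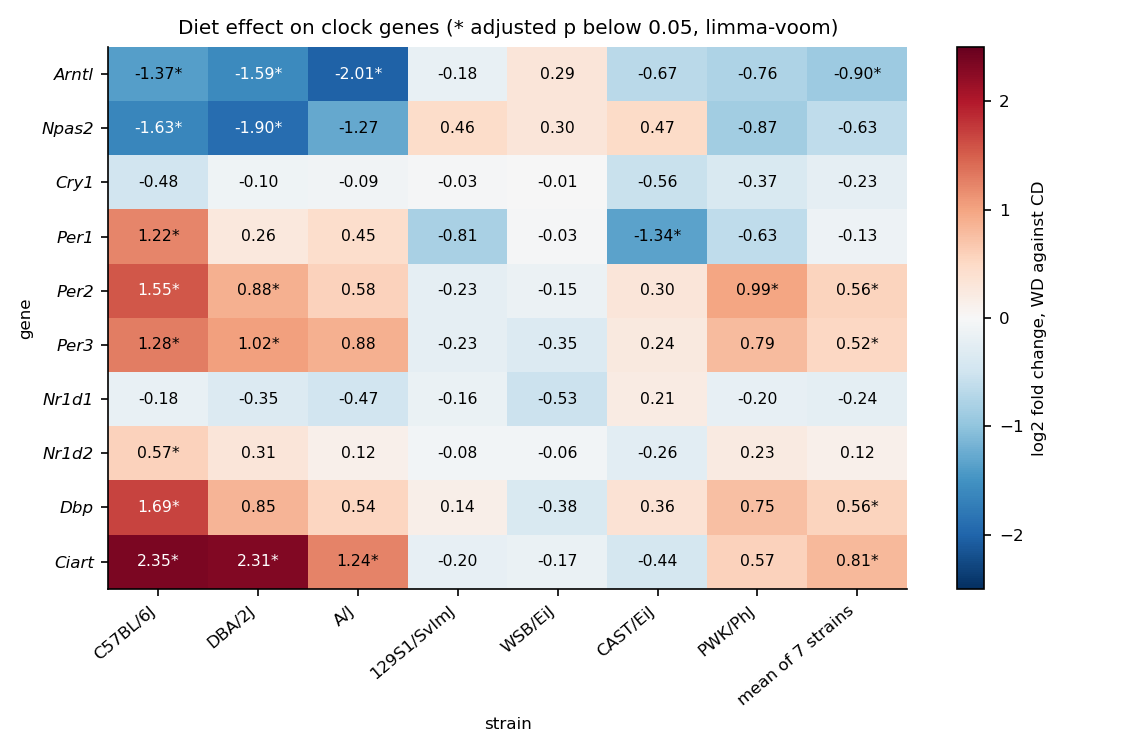
Log2 fold change of each clock gene between WD-TN and CD-TN in each of the 7 strains and on average (limma-voom, 5 to 8 mice per group); the colour and the number give the fold change, and a star marks an adjusted p below 0.05. C57BL/6J holds 8 stars, DBA/2J 5, A/J 2, CAST/EiJ and PWK/PhJ 1 each, and 129S1/SvImJ and WSB/EiJ 0.

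In C57BL/6J, the 2 activators fell on WD-TN, and 6 genes of the repressing and output arms rose. The median log2 fold change of the 10 genes was 0.90, against 0.00 for all genes. Among the activators, Npas2 fell by 1.63 ± 0.52 on the log2 scale (adjusted p = 0.0128) and Arntl by 1.37 ± 0.40 (0.00657). Among the repressors, Ciart rose by 2.35 ± 0.51 (adjusted p = 0.000196), Per2 by 1.55 ± 0.21 (1.84e-08), Per3 by 1.28 ± 0.32 (0.00127), Per1 by 1.22 ± 0.34 (0.00436) and Nr1d2 by 0.57 ± 0.15 (0.00238). The output gene Dbp rose by 1.69 ± 0.41 (0.000862). Cry1 (−0.48 ± 0.26, adjusted p = 0.175) and Nr1d1 (−0.18 ± 0.34, 0.752) did not pass. Per1 ran from 7.75 CPM through a median of 13.3 to 17.4 in the 8 CD-TN mice, and from 17.9 through 29.6 to 44.9 in the 8 WD-TN mice. It was the gene of the 10 whose diet groups did not overlap in C57BL/6J, and no other strain had such a gene among the 10. Overlap was not counted for genes outside the 10, so it has no background here. Per2 ran from 7.17 through 9.44 to 24.0 CPM on CD-TN and from 18.4 through 36.5 to 50.1 on WD-TN, so its groups overlapped at their edges.

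The 2 cohorts of C57BL/6J differed in most of these genes, and the diet effect was large in 1 of them. The 3 CD-TN mice of cohort 1 had 25.5, 38.4 and 22.8 CPM of Arntl and 10.96, 17.8 and 10.8 CPM of Npas2. The 5 CD-TN mice of cohort 2 had 10.7, 5.76, 7.79, 2.28 and 3.23 CPM of Arntl and 2.23, 1.77, 1.95, 0.422 and 0.651 CPM of Npas2. The activators were thus higher in each CD-TN mouse of cohort 1 than in any of cohort 2. The genes opposite to them in the loop were lower there: Dbp was at 5.42, 0.823 and 4.93 CPM in cohort 1 and at 16.5, 38.8, 40.2, 104 and 74.1 in cohort 2. Per3 was at 3.03, 2.76 and 2.31 CPM in cohort 1 and at 6.77, 15.4, 14.9, 48.5 and 31.9 in cohort 2. Cry1, whose transcript peaks later in the day than those of the Per genes, was high together with Arntl, at 22.4, 36.1 and 15.6 CPM in cohort 1, whereas cohort 2 held 4.08 to 6.59 CPM.

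On WD-TN, the cohorts stood closer together. The 5 WD-TN mice of cohort 1 had 1.97, 2.04, 6.00, 2.61 and 2.32 CPM of Arntl, and the 3 of cohort 2 had 6.15, 8.13 and 6.58. Dbp was at 65.2, 66.2, 27.9, 48.4 and 63.2 CPM in cohort 1 and at 52.4, 31.1 and 70.3 in cohort 2. Arntl was therefore higher in cohort 1 than in cohort 2 on CD-TN and lower on WD-TN, and the Dbp values of both cohorts overlapped on WD-TN.

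Within cohort 1 (3 CD-TN against 5 WD-TN mice), limma-voom called 9 of the 10 clock genes, where 21.4% of all genes passed. Dbp rose by 4.28 ± 0.59 on the log2 scale, Ciart by 3.64 ± 1.04, Per3 by 3.23 ± 0.54, Per2 by 2.21 ± 0.33, Per1 by 1.48 ± 0.49 and Nr1d2 by 1.20 ± 0.20. Npas2 fell by 4.17 ± 0.49, Arntl by 3.35 ± 0.42 and Cry1 by 1.90 ± 0.26. Nr1d1 gave 0.41 ± 0.42 (adjusted p = 0.540). Within cohort 2 (5 against 3 mice), 2 of the 10 passed, against 13.9% of all genes: Ciart rose by 1.69 ± 0.59 (adjusted p = 0.0414) and Per2 by 0.99 ± 0.28 (0.0120). There, the point estimates of Arntl (0.40 ± 0.44), Npas2 (0.43 ± 0.58), Cry1 (0.55 ± 0.31) and Per3 (−0.17 ± 0.36) had the sign opposite to that over both cohorts, and none of them passed.

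The difference between the cohorts' diet effects was tested in the same fit, as a comparison chosen after the data were seen. It passed for 6 of the 10 clock genes, against 6.09% of all genes. The effect in cohort 1 minus that in cohort 2 was −4.60 ± 0.76 for Npas2 (limma-voom adjusted p = 5.32e-05), −3.75 ± 0.60 for Arntl (4.16e-05), −2.45 ± 0.40 for Cry1 (4.98e-05), 4.19 ± 0.70 for Dbp (5.90e-05), 3.39 ± 0.65 for Per3 (0.000428) and 1.01 ± 0.28 for Nr1d2 (0.0189). It did not pass for Per2 (1.23 ± 0.43, adjusted p = 0.0743), Ciart (1.95 ± 1.20, 0.382), Per1 (0.47 ± 0.67, 0.777) and Nr1d1 (0.52 ± 0.60, 0.709). What differed between the cohorts besides their number is not given in the labels. RNA integrity numbers of the CD-TN mice were 8.7 to 8.9 in cohort 1 and 7.0 to 8.8 in cohort 2, and their part in these values was not tested.

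CD-TN mouse 2 of cohort 1 stood apart from the others of its group. Its Nr1d1 was at 8.50 CPM and that of the other 7 mice was between 88.2 and 142, and its Nr1d2 was at 16.7 CPM. Without this mouse, 7 clock genes were called in C57BL/6J: Npas2 was no longer called (−1.21, limma-voom adjusted p = 0.0526), Nr1d2 rose by 0.30 and Dbp by 1.05. The share of all genes called without this mouse is not given here. With edgeR, Per3 (0.57, adjusted p = 0.167) and Dbp (0.58, 0.244) were not called in C57BL/6J either, and Cry1 was (−0.87).

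**Figure D3:**
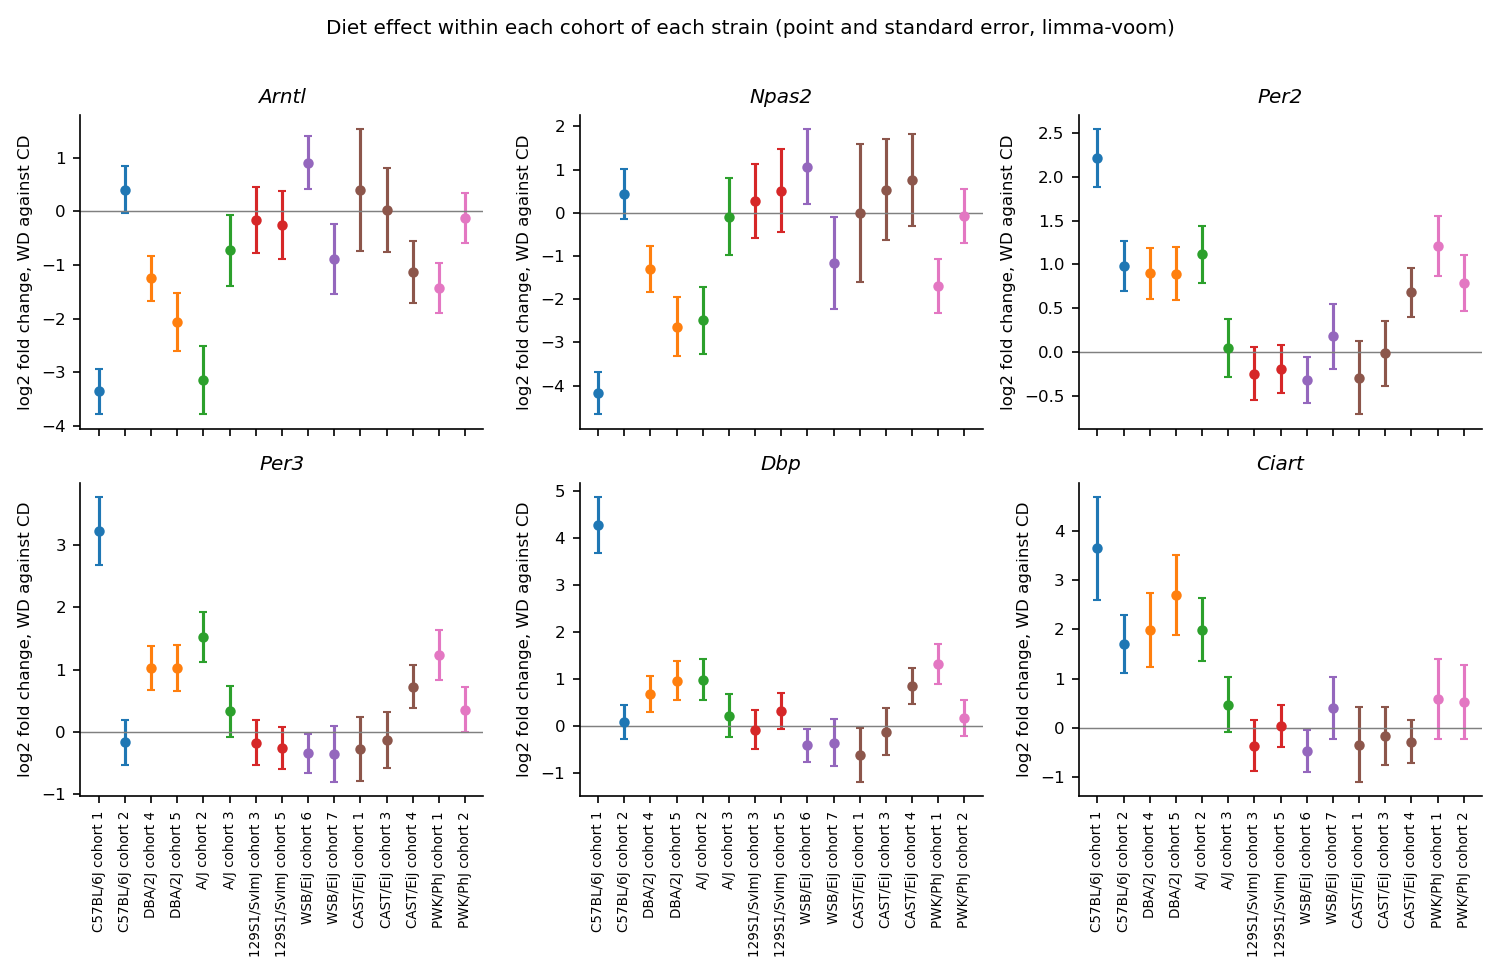
Log2 fold change between WD-TN and CD-TN within each cohort of each strain, with its standard error (limma-voom, 1 to 5 mice per group of a cohort). In C57BL/6J, Dbp is at 4.28 in cohort 1 and 0.09 in cohort 2, and Arntl at −3.35 and 0.40; in DBA/2J, Arntl is at −1.25 and −2.05.

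In DBA/2J, the activators fell and 3 repressors rose, as they did in C57BL/6J, and here the direction was shared by both cohorts. Npas2 fell by 1.90 ± 0.56 on the log2 scale (adjusted p = 0.00986) and Arntl by 1.59 ± 0.44 (0.00604). Ciart rose by 2.31 ± 0.57 (0.00175), Per3 by 1.02 ± 0.31 (0.0140) and Per2 by 0.88 ± 0.22 (0.00193), while Dbp (0.85 ± 0.43, 0.177) did not pass. Ciart ran from 0.971 through 1.57 to 2.98 CPM in 6 CD-TN mice and from 2.95 through 9.46 to 14.1 in 7 WD-TN mice, so that 6 of the 7 lay above each CD-TN mouse. Arntl ran from 7.74 through 11.1 to 34.6 CPM on CD-TN and from 1.89 through 4.24 to 12.2 on WD-TN, with 6 of the 7 WD-TN mice below each CD-TN mouse.

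Cohorts 4 and 5 of DBA/2J gave effects of the same sign for these 5 genes. The log2 fold changes were −1.25 and −2.05 for Arntl, −1.31 and −2.63 for Npas2, 1.99 and 2.69 for Ciart, 0.90 and 0.90 for Per2, and 1.03 and 1.03 for Per3. With so few mice, limma-voom did not call Npas2 and Ciart in cohort 4 (adjusted p = 0.0984 and 0.0733) or Per2 and Per3 in cohort 5 (0.0585 and 0.0835), and the difference between the cohorts was not tested. All 5 calls over both cohorts were kept under the other tests, normalizations, filters, covariates and weights, while no mouse of DBA/2J was left out.

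In A/J, Arntl fell by 2.01 ± 0.62 on the log2 scale (adjusted p = 0.0262) and Ciart rose by 1.24 ± 0.40 (0.0370). The 5 CD-TN mice had 15.8, 8.65, 8.12, 4.40 and 4.18 CPM of Arntl, and the 6 WD-TN mice ran from 1.15 through 1.34 to 7.84, with 5 of the 6 below each CD-TN mouse. Ciart was at 2.89, 9.70, 9.38, 9.85 and 10.0 CPM on CD-TN and ran from 7.13 through 21.9 to 28.2 on WD-TN. Leaving out single CD-TN mice removed both calls. Without mouse 1, Arntl gave −1.73 (limma-voom adjusted p = 0.0999), and without mouse 2 it gave −1.94 (0.0547). Ciart lost its call whichever of the 5 was left out, with 0.90 (limma-voom adjusted p = 0.183) without mouse 1 and 1.32 to 1.34 (0.0502 to 0.0541) without any of the other 4. The latter estimates lay above the 1.24 with all mice, so only leaving out mouse 1 made the effect smaller. Cohort 2 (2 against 4 mice) gave −3.14 for Arntl and 1.99 for Ciart, and cohort 3 (3 against 2 mice) gave −0.73 and 0.47.

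PWK/PhJ and CAST/EiJ each had 1 clock gene called, Per2 (higher) and Per1 (lower) in turn. In PWK/PhJ, Per2 rose by 0.99 ± 0.24 on the log2 scale (adjusted p = 0.000951), from 6.20 through 11.3 to 19.7 CPM in 6 CD-TN mice to 16.1 through 23.3 to 26.5 in 7 WD-TN mice. Per3 (0.79 ± 0.33, 0.0607) and Arntl (−0.76 ± 0.43, 0.186) did not pass, and a fit of PWK/PhJ alone called 6 of the 10 genes. The background of 29.6% belongs to the fit of all strains together, and that of the fit of PWK/PhJ alone is not given here. Per1 gave −0.63 ± 0.45 (adjusted p = 0.308) in PWK/PhJ, and edgeR (−1.06, adjusted p = 0.0199) and DESeq2 (−1.05, 0.0160) called it lower there. Its level ran from 2.51 through 15.3 to 37.6 CPM on CD-TN and from 5.87 through 8.23 to 9.85 on WD-TN. Each WD-TN mouse thus lay within the CD-TN range. The effect on Per2 was 1.21 in cohort 1 and 0.79 in cohort 2, that on Arntl −1.43 and −0.13, and that on Per1 0.14 and −1.35.

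In CAST/EiJ, Per1 fell by 1.34 ± 0.34 on the log2 scale (adjusted p = 0.00257), from 22.4 through 47.5 to 99.3 CPM in 7 CD-TN mice to 10.8 through 18.5 to 43.1 in 8 WD-TN mice. A set of 3 CD-TN mice, all of cohort 4, stood out: mice 5 to 7 had 90.7, 92.5 and 99.3 CPM of Per1, against 22.4 to 47.5 in the other 4. The same 3 mice had 30.3, 40.3 and 37.2 CPM of Cry1, 33.7, 11.9 and 17.9 of Nr1d1, and 42.9, 21.1 and 22.7 of Dbp. Their Cry1 was thus above and their Nr1d1 and Dbp below those of each other CD-TN mouse of the strain. Within cohort 4, Per1 gave −1.89, and within cohorts 3 and 1 it gave −0.66 and −0.33, with 1 CD-TN mouse in cohort 1. Npas2 was low throughout CAST/EiJ, between 0.103 and 0.826 CPM on CD-TN and between 0.245 and 1.26 on WD-TN.

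In 129S1/SvImJ and WSB/EiJ, no clock gene was called, and the diet groups overlapped for all 10. The share of all genes whose groups overlapped was not counted. In 129S1/SvImJ, Per2 ran from 36.2 through 46.4 to 68.3 CPM on CD-TN and from 32.4 through 42.0 to 48.3 on WD-TN, and Arntl from 1.88 through 3.11 to 4.18 and from 1.61 through 2.40 to 5.32. Per1 came nearest to a call there, at −0.81 ± 0.36 on the log2 scale (adjusted p = 0.0841). In WSB/EiJ, Dbp ran from 61.5 through 97.4 to 140 CPM on CD-TN and from 43.1 through 79.4 to 87.6 on WD-TN, and its fold change was −0.38 ± 0.45 (adjusted p = 0.697). The effect on Arntl was −0.18 ± 0.58 in 129S1/SvImJ and 0.29 ± 0.51 in WSB/EiJ, and errors of this size leave room for a change in either direction.

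Whether the diet effect itself differed between strains was tested with an F test over the 7 strains, which 37.5% of all genes passed. It passed for 5 of the 10 clock genes: Per2 (limma-voom adjusted p = 7.47e-06), Ciart (8.44e-05), Per1 (0.000483), Per3 (0.00841) and Nr1d2 (0.0267). For Arntl (0.0624), Dbp (0.0864), Npas2 (0.163), Cry1 (0.721) and Nr1d1 (0.887), a difference between strains was not shown.

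Each strain was then set against the mean of the other 6. C57BL/6J had a larger effect for Ciart (a difference of 1.80 ± 0.54 on the log2 scale, adjusted p = 0.0336), Per1 (1.57 ± 0.38, 0.00640), Per2 (1.16 ± 0.23, 0.000741) and Nr1d2 (0.52 ± 0.17, 0.0468), which is 4 of 10 genes against a background of 4.69%. With edgeR, Ciart was not called (1.11, adjusted p = 0.109) and neither was Nr1d2, which gave 0.26 (limma-voom adjusted p = 0.149) without C57BL/6J CD-TN mouse 2. CAST/EiJ had a lower effect for Ciart (−1.46 ± 0.37, 0.00403) and Per1 (−1.42 ± 0.38, 0.00576), against a background of 14.5%. 129S1/SvImJ had a lower effect for Per2 (−0.92 ± 0.23, 0.00765), against 6.28%. The limma-voom test called 0 of the 10 in DBA/2J (background 7.77%), A/J (0.466%), WSB/EiJ (0.947%) and PWK/PhJ (16.3%). At an unadjusted p below 0.05, 2, 1, 5 and 0 of the 10 passed in turn. These backgrounds are shares at the adjusted threshold, and the share of all genes at the unadjusted one is not given here. In DBA/2J, edgeR and DESeq2 called 1 gene each, and in WSB/EiJ DESeq2 called 1 and edgeR 0. In A/J and PWK/PhJ, both called 0. The share of all genes called by edgeR and DESeq2 is not given beside these counts.

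The strains also differed in the level of the clock genes on the same diet. On CD-TN, an F test over the 7 strains passed for all 10 genes, with adjusted p between 3.02e-18 (Per2) and 0.00353 (Nr1d1), and 93.7% of all genes passed it. On WD-TN it passed for 7 of the 10, with Npas2 (limma-voom adjusted p = 0.459), Nr1d1 (0.320) and Dbp (0.122) not passing, and 93.9% of all genes passed. The share of clock genes on CD-TN is thus near the background, and on WD-TN below it.

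C57BL/6J was at the low end on CD-TN for the genes that the activators drive. Its mean log2 CPM was the lowest of the 7 strains for Per2 (3.48 ± 0.64 SD), Per3 (3.19 ± 1.67), Nr1d2 (5.99 ± 0.83), Dbp (4.02 ± 2.35) and Ciart (0.58 ± 1.58). The strain next to it was PWK/PhJ for Per2, Per3, Nr1d2 and Dbp and DBA/2J for Ciart, and in none of the 5 genes did the gap to it exceed the larger SD of both. At the other end, 129S1/SvImJ had the highest mean of Per2 (5.57 ± 0.31) and Per3 (5.83 ± 0.29), WSB/EiJ of Nr1d2 (7.13 ± 0.18) and Dbp (6.55 ± 0.39), and CAST/EiJ of Ciart (4.09 ± 0.61). Per2 stood in steps: C57BL/6J and PWK/PhJ (3.50 ± 0.58) lay below DBA/2J (4.62 ± 0.28), which lay below A/J (5.08 ± 0.46), and each of these gaps exceeded the larger SD except that between C57BL/6J and PWK/PhJ. From A/J through CAST/EiJ and WSB/EiJ to 129S1/SvImJ, neighbours did not differ beyond their spread.

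The activators stood in another order on CD-TN, with DBA/2J highest for both. Arntl ran in mean log2 CPM from 129S1/SvImJ (1.65 ± 0.39) through CAST/EiJ (2.20 ± 0.91), WSB/EiJ (2.33 ± 1.06), A/J (2.87 ± 0.78), PWK/PhJ (3.10 ± 0.65) and C57BL/6J (3.29 ± 1.45) to DBA/2J (3.69 ± 0.79), with no gap between neighbours beyond the larger SD. Npas2 ran from CAST/EiJ (−1.45 ± 0.87) to DBA/2J (2.03 ± 1.07) in nearly the same order of strains. Cry1 was highest in CAST/EiJ (4.47 ± 0.68), above PWK/PhJ (3.68 ± 0.27) by more than the larger SD.

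Against C57BL/6J on CD-TN, limma-voom called 10 clock genes for CAST/EiJ (background 65.9%), 8 for 129S1/SvImJ (48.9%), 7 for WSB/EiJ (53.8%), 6 for A/J (38.4%), 4 for DBA/2J (39.7%) and 2 for PWK/PhJ (58%). Per3 and Dbp were called higher in all 6 strains than in C57BL/6J, Per3 by 0.79 ± 0.35 (PWK/PhJ) to 2.67 ± 0.32 (129S1/SvImJ) on the log2 scale and Dbp by 1.16 ± 0.44 (PWK/PhJ) to 2.58 ± 0.44 (WSB/EiJ). With edgeR, neither gene was called for DBA/2J (Per3 0.63, adjusted p = 0.114, and Dbp 0.51, 0.289) or for PWK/PhJ (0.05, 0.909, and 0.12, 0.798). Without C57BL/6J CD-TN mouse 2, limma-voom gave 0.52 (adjusted p = 0.204) for Per3 and 0.51 (0.232) for Dbp in PWK/PhJ. In that fit, Nr1d2 was not called for DBA/2J (0.20, 0.151) and Arntl was not called for CAST/EiJ (−0.84, 0.0731). All 6 of these comparisons share the 8 C57BL/6J mice on CD-TN, among them the 3 of cohort 1 described above.

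On WD-TN, C57BL/6J still had the lowest mean log2 CPM of Per3 (4.44 ± 0.64) and Dbp (5.66 ± 0.51), with PWK/PhJ next (4.74 ± 0.32 and 5.89 ± 0.17) and no gap beyond the larger SD. For Per2, Nr1d2 and Ciart it was second to PWK/PhJ, which had the lowest mean (4.49 ± 0.22, 6.39 ± 0.13 and 1.81 ± 0.29). For Per2 and Ciart, the gap from PWK/PhJ to C57BL/6J, next in order (5.02 ± 0.52 and 2.87 ± 0.62), exceeded the larger SD. PWK/PhJ was also lowest for Per1 (2.95 ± 0.30), below CAST/EiJ (4.29 ± 0.77) by more than the larger SD. A/J was highest for Per2 (5.66 ± 0.38), Per3 (6.19 ± 0.36), Dbp (6.83 ± 0.27) and Ciart (4.19 ± 0.75) and lowest for Arntl (0.86 ± 1.05).

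Cohort was tested within strains, with the diet in the model. Over all strains, Cry1 (limma-voom adjusted p = 0.0434) and Nr1d1 (0.00649) passed, 2 of 10 against 2.31% of all genes. In C57BL/6J, 6 of the 10 passed, against 10.4% of all genes: Npas2 (2.25 ± 0.45 on the log2 scale, cohort 1 minus cohort 2), Arntl (1.25 ± 0.38), Cry1 (1.13 ± 0.24), Dbp (−1.53 ± 0.38), Nr1d1 (−1.32 ± 0.30) and Nr1d2 (−0.52 ± 0.15). This model fits 1 cohort difference for both diets. The diet effect differed between these cohorts for each of the 6 except Nr1d1, so the values are averages. For Arntl the cohorts stood in opposite order on CD-TN and WD-TN. In the other 6 strains limma-voom called 0 of the 10, against backgrounds of 0.199% in DBA/2J, 0.0157% in A/J, 0.12% in 129S1/SvImJ, 0.0105% in WSB/EiJ, 0.748% in CAST/EiJ and 0.0209% in PWK/PhJ. At an unadjusted p below 0.05, Nr1d1 passed in DBA/2J, Per1 in 129S1/SvImJ and Cry1 and Nr1d1 in CAST/EiJ. The backgrounds are shares at the adjusted threshold, and those at the unadjusted one are not given here. No other tool was run for this test within single strains.

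The spread between mice of 1 group was larger for the clock genes than for most genes in several groups. The median SD of the 10 genes was 1.40 on the log2 scale in C57BL/6J on CD-TN, where the median of all genes was 0.32, and it was 0.78 in CAST/EiJ on CD-TN, against 0.31. In 129S1/SvImJ on WD-TN it was 0.25, against 0.19.

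Within groups, mice that were high in 1 clock gene were high or low in the others in a set pattern. Each mouse's log2 CPM was taken as the deviation from the mean of its strain and diet, and the 45 pairs of genes were correlated over the 93 mice, with p from 100000 permutations within groups, adjusted over the 45 pairs. By Pearson's r, 34 pairs passed, 18 positive and 16 negative, and by Spearman's rho 31 passed. Pairs of other genes were not tested in this way, so whether 34 of 45 is more than the share among all genes is not known. The mice of a group share their cohorts, libraries and, within limits, hour of collection, and the smallest p that the permutations can give is 1e-05.

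The activators moved together and against Per2, Per3, Nr1d2, Dbp and Ciart. Arntl and Npas2 had r = 0.78 (permutation p = 1e-05, adjusted 2.65e-05, rho = 0.72), and r = 0.76 without the 2 mice farthest from the median of Arntl. Arntl had r = −0.77 with Per2 (rho = −0.75, −0.74 without 2 mice) and r = −0.68 with Dbp (rho = −0.65, −0.66 without 2 mice). Per3 and Dbp had r = 0.81 (rho = 0.73, 0.77 without 2 mice). For each of these 4 pairs, the permutation p was 1e-05 and the adjusted p 2.65e-05.

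Over the strains together, Cry1 went with Arntl (r = 0.57, permutation p = 1e-05, rho = 0.48, and 0.59 without 2 mice). Cry1 went against Dbp (r = −0.72, permutation p = 3e-05, rho = −0.46, and −0.60 without 2 mice). Arntl and its repressor gene Nr1d1 did not pass (r = −0.10, permutation p = 0.516, rho = 0.09). The pair Nr1d1 and Nr1d2 rested on few mice, since r = 0.50 (permutation p = 0.0198, rho = 0.16) went to 0.12 without 2 of them. The same held for Cry1 and Nr1d2, from −0.43 (permutation p = 0.0283, rho = −0.10) to −0.21. All 34 pairs kept their sign without the 2 mice. With deviations from the means of strain, diet and cohort instead, 31 pairs passed, 29 of them among the 34, and 1 of the 34 had the other sign. Per3 and Dbp then had r = 0.65, Arntl and Npas2 0.70, and Arntl and Dbp −0.61.

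The signs were alike in most strains. Arntl and Npas2 had r between 0.74 and 0.96 in 6 strains (11 to 16 mice each) and −0.16 in CAST/EiJ (15 mice). Arntl and Per3 were negative in all 7 strains, from −0.94 in C57BL/6J to −0.43 in CAST/EiJ. Arntl and Dbp were also negative in all 7, from −0.87 in C57BL/6J to −0.29 in 129S1/SvImJ. Arntl and Cry1 had r = 0.80 in C57BL/6J, 0.78 in CAST/EiJ, 0.47 in PWK/PhJ and 0.45 in DBA/2J. The same pair had only r = 0.14 in WSB/EiJ, 0.07 in 129S1/SvImJ and −0.05 in A/J. Per1 and Per2 had r = 0.78 in 129S1/SvImJ and −0.45 in CAST/EiJ. These values are given as a description, and the difference between strains was not tested.

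**Figure D4:**
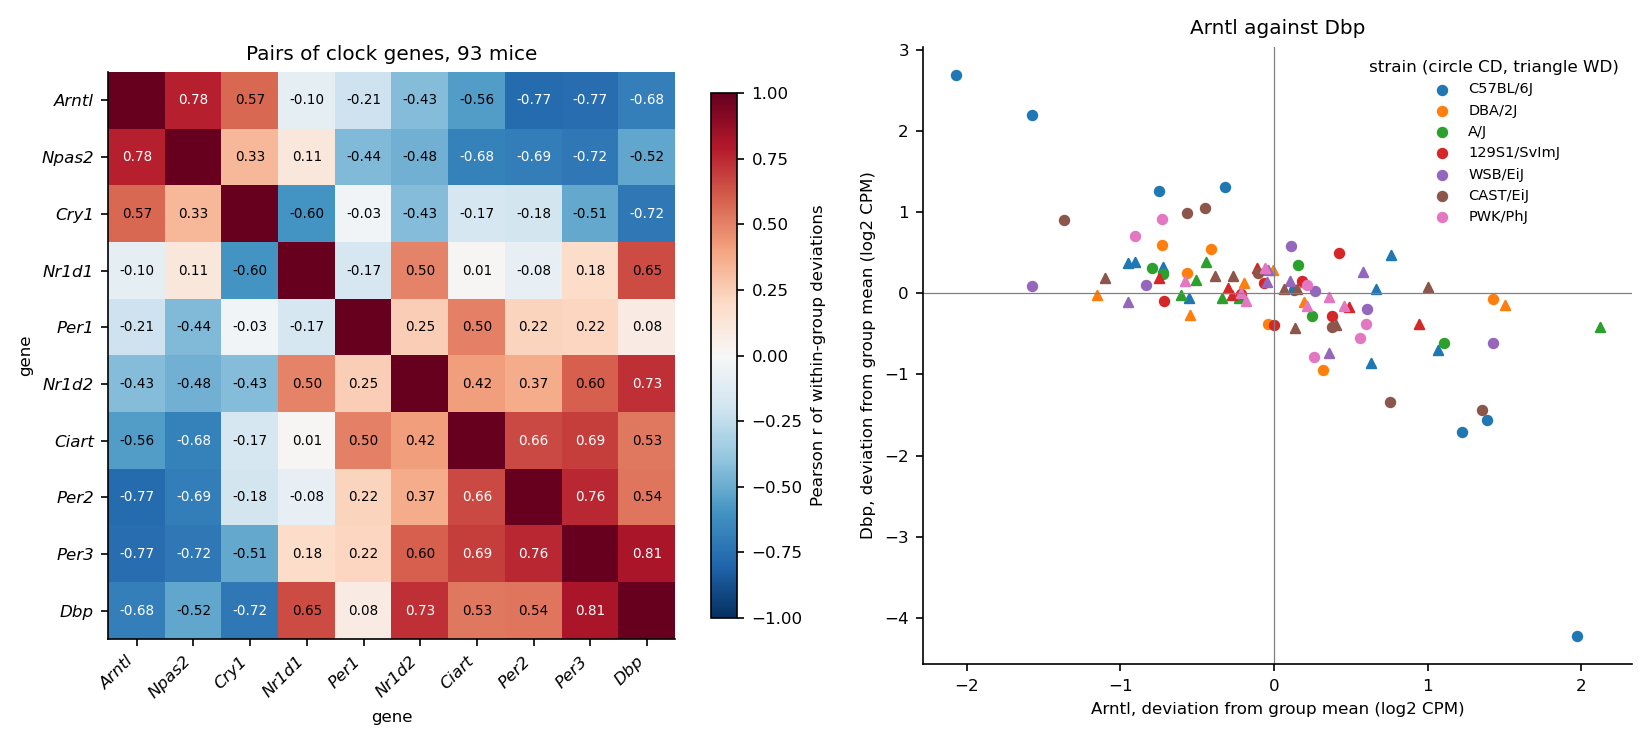
Left, Pearson's r of each pair of clock genes over 93 mice, from deviations of log2 CPM from the mean of strain and diet. Right, the deviations of Arntl (x axis, log2 CPM) and Dbp (y axis, log2 CPM) of each mouse, coloured by strain, with circles for CD-TN and triangles for WD-TN; r is −0.68 over the 93 mice.

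Other genes of the clock changed on average in both directions on WD-TN. Of 18 further clock genes on the list, 6 were called higher and 7 lower in the mean over strains, where 51.6% of all genes were called. Their median log2 fold change was 0.00. Bhlhe41, a repressor of the activating complex, rose by 0.72 ± 0.13 on the log2 scale, and its relative Bhlhe40 fell by 0.51 ± 0.08. Clock, the partner of Arntl, fell by 0.28 ± 0.05, and Rora, which activates Arntl, fell by 0.23 ± 0.04. Nfil3, which binds D-boxes as a repressor, fell by 0.31 ± 0.08, and Tef, an activator of the family of Dbp, rose by 0.30 ± 0.09. In C57BL/6J alone, 3 of the 18 were called higher and 3 lower, where 26.2% of all genes were called.

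Of 12 clock output genes of the liver on the list, 6 were called higher and 2 lower in the mean over strains, where 51.6% of all genes were called, with a median of 0.31. Cyp7a1, the rate-limiting enzyme of bile acid synthesis, rose by 1.36 ± 0.21 on the log2 scale, Usp2, a ubiquitin protease, by 1.04 ± 0.16, Wee1, a kinase of the cell cycle, by 0.79 ± 0.12, Tsku by 0.76 ± 0.15, Por by 0.41 ± 0.09 and Nampt by 0.31 ± 0.07. Rgs16, a regulator of G protein signalling, fell by 1.11 ± 0.22, and Gys2, the glycogen synthase of the liver, by 0.32 ± 0.07. These 8 genes are named because they were called, a choice made after their values were seen.

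Lists of genes that respond to other cues were counted in the same comparison, where 51.6% of all genes were called. Of 11 fasting and feeding genes, 8 were called lower, with a median of −0.61. Of 7 glucocorticoid-induced genes, 0 were called higher and 3 lower, and of 7 heat shock genes 3 were called higher and 2 lower. All 5 leukocyte markers were called higher on WD-TN, and the group medians of their summed level ran from 84.8 to 169 CPM on CD-TN and from 119 to 226 on WD-TN. All 5 matched hepatocyte markers, which include albumin, were called lower, and the group medians of their sum ran from 98315 to 194443 CPM on CD-TN and from 70684 to 132849 on WD-TN. Of the other markers, 2 of 5 for Kupffer cells, 3 of 6 for stellate cells and 2 of 4 for cholangiocytes were called higher and 0 lower, 2 of 5 for sinusoidal endothelium were called higher and 2 lower, and 0 of 3 were called for T cells and 0 of 3 for B cells. In whole liver, fewer cells of a type and less RNA per cell cannot be told apart. The part of these genes in the clock gene values was not tested.

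Over the same 93 mice, some genes outside the list followed single clock genes closely within groups, and their r is given as a description. For Arntl the highest were Chka (0.90), Ypel2 (0.84), Gldc (0.82), Leo1 (0.80) and Tab2 (0.80), and the lowest Slc5a6 (−0.76), Marveld1 (−0.76) and Usp2 (−0.75). For Dbp the highest were Tef (0.87), Pcsk4 (0.79), Slc2a5 (0.79), Gys2 (0.78) and Aqp9 (0.74), and the lowest Desi2 (−0.77) and Skil (−0.72). For Per2 the highest were Slc46a3 (0.78), Wee1 (0.78), Gm45819 (0.77), Usp2 (0.77) and Marveld1 (0.75), and the lowest Tab2 (−0.77), Chka (−0.77) and Clpx (−0.71). Chka, the choline kinase that starts phosphatidylcholine synthesis, and Tab2 were thus at the high end for Arntl and the low end for Per2. Of the clock genes outside the 10, Clock had r = 0.66 with Arntl and −0.47 with Dbp, and Nfil3 0.61 and −0.46.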

How the data were processed

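Liver RNA of 93 mice was sequenced by the authors on the BGISEQ-500 from SMARTER libraries and mapped to the C57BL/6J genome (GRCm38, mm10) with STAR 2.7.1a per the submitters' notes. The table deposited by the authors holds unnormalized counts of reads for each gene in each mouse. The strand setting and the annotation release are not given in the sources used here. The 4 summary lines of unassigned reads were removed, and reads that did not map took 2.11% of a mouse's reads on average in A/J on WD-TN and 13.3% in CAST/EiJ on WD-TN, the lowest and highest groups, which could lower counts in strains far from the reference. Depth is given in the report.

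For the tests, edgeR 4.0.16 (filterByExpr, minimum count 10; TMM) and limma 3.58.1 (voom, 14 group means fitted together, moderated test) were run in R 4.3.3, with Benjamini-Hochberg adjustment over 19110 genes within each comparison. Every adjusted p of a gene comes from limma unless edgeR or DESeq2 is named. CPM used the TMM library sizes, and log2 CPM a prior count of 2. The fits were tested on simulated data. Alternatives were edgeR's quasi-likelihood test, DESeq2 1.42.0, other normalization and filters, covariates, quality weights, separate fits and leaving out single mice.

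All 10 clock genes are named. Of the other clock genes, at most 6 called in the mean diet effect are named by size, and for Arntl, Dbp and Per2 the 5 genes with the highest and the 3 with the lowest r, of which 1 is not reported here. The clock genes and the lists were chosen with earlier results of these data known. Replicate numbers are in accession order and name a mouse only.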

Additional observations from a re-analysis of the deposited data

Results flagged for a closer look

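In 19 of 140 sets of 1 clock gene in 1 group, the highest or lowest mouse lay farther from its neighbour than Dixon's 95% limit allows. The limit assumes normal values, while CPM was used here without a log, and the sets share mice. The number that chance would give is therefore not known. The 19 values came from 14 mice, and all are in CPM. DBA/2J CD-TN mouse 1 was highest for Arntl (34.6) and Npas2 (14.0), and DBA/2J WD-TN mouse 1 was highest for Arntl (12.2) and Npas2 (4.64) and lowest for Per2 (26.4). A/J WD-TN mouse 5 was highest for Arntl (7.84) and Npas2 (1.41), and WSB/EiJ CD-TN mouse 6 was highest for Npas2 (3.43) and lowest for Per1 (25.1). In each of these 4 mice an activator stood above the rest of the group. C57BL/6J CD-TN mouse 2 was lowest for Nr1d1 (8.50), and C57BL/6J CD-TN mouse 7 was highest for Ciart (9.68). CAST/EiJ WD-TN mouse 4 was highest for Npas2 (1.26), DBA/2J CD-TN mouse 6 lowest for Per1 (6.07), and PWK/PhJ WD-TN mouse 4 lowest for Per2 (16.1). Nr1d2 was highest in DBA/2J WD-TN mouse 2 (142), in PWK/PhJ WD-TN mouse 6 (100.8) and in WSB/EiJ CD-TN mouse 5 (177). Ciart was highest in 129S1/SvImJ CD-TN mouse 7 (29.7) and lowest in A/J CD-TN mouse 1 (2.89).

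The diet effect differed between strains for 5 clock genes by the F test of limma-voom, with adjusted p of 7.47e-06 for Per2, 8.44e-05 for Ciart, 0.000483 for Per1, 0.00841 for Per3 and 0.0267 for Nr1d2. Set against the mean of the other 6 strains on the log2 scale, the effect in C57BL/6J was larger for Ciart (1.80), Per1 (1.57), Per2 (1.16) and Nr1d2 (0.52), that in CAST/EiJ was smaller for Ciart (−1.46) and Per1 (−1.42), and that in 129S1/SvImJ was smaller for Per2 (−0.92).

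Between the 2 cohorts of C57BL/6J, the diet effect differed for 6 clock genes. Cohort 1 minus cohort 2 was −4.60 for Npas2, −3.75 for Arntl, −2.45 for Cry1, 1.01 for Nr1d2, 3.39 for Per3 and 4.19 for Dbp on the log2 scale. The hour of collection of each mouse is not in the labels, so it cannot be told apart from cohort.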

How the results depend on the processing

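No paired analysis was possible because the replicate numbers only follow the order of the accessions. Of the 17 calls of a clock gene within a strain, 9 held under every alternative that was run for all strains or for that strain, single cohorts of strains other than C57BL/6J not counted: Per2 and Ciart in C57BL/6J, all 5 in DBA/2J, Per1 in CAST/EiJ and Per2 in PWK/PhJ. No mouse of DBA/2J, CAST/EiJ or PWK/PhJ was left out in these alternatives. The Per1 call in CAST/EiJ was therefore not tried without the CD-TN mice of cohort 4 that stood out. Of 362 counts of called clock genes under an alternative, 305 stayed within 1.5 times the value reported. The others follow, as counts of the 10 genes, and their cause was not tested. The share of all genes called under each alternative is not given beside them. For the diet effect, A/J gave 1 with edgeR, with all genes of any count and with cohort as a covariate, 4 with sample quality weights, and 0 to 1 without single A/J CD-TN mice, against 2. PWK/PhJ gave 2 with edgeR, DESeq2 and at least 10 counts in every mouse, 4 with weights and 6 in a separate fit, against 1. C57BL/6J gave 3 in a separate fit and 2 in cohort 2 alone, against 8. CAST/EiJ gave 2 with DESeq2, with weights and without C57BL/6J CD-TN mouse 2, against 1, and 129S1/SvImJ 1 with weights, against 0. The mean over strains gave 8 with DESeq2 and with cohort and 9 with weights, against 5, and the F test 8 with cohort, against 5. Against the other 6 strains, C57BL/6J gave 7 with cohort and 2 with weights, against 4. DBA/2J gave 1 with edgeR, DESeq2, at least 10 counts and cohort, 2 with weights, and 0 to 1 without single mice, against 0. WSB/EiJ gave 1 with DESeq2 and 2 with weights, against 0, and 129S1/SvImJ 3 with weights and 1 to 2 without single mice, against 1. Against C57BL/6J on CD-TN, DBA/2J gave 2 with edgeR and DESeq2, against 4, and PWK/PhJ 1 with edgeR, DESeq2, upper-quartile normalization, both other filters, cohort, RNA integrity and weights, and 1 to 2 without single mice, against 2. Cohort within strain gave 1 with edgeR, any count and weights, and 1 to 2 without single mice, against 2.

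Some effects changed sign, on the log2 scale. In WSB/EiJ, Npas2 gave −0.025 with edgeR and −0.030 with DESeq2, Per1 0.00088 and 0.0028, Cry1 0.016 and 0.018 (0.044 with weights) and Ciart 0.042 and 0.043 (0.080 with weights). In CAST/EiJ, Nr1d1 gave −0.078 and −0.083. In 129S1/SvImJ, Cry1 gave 0.038 with upper-quartile normalization, 0.0057 with at least 10 counts and 0.032 with weights. In C57BL/6J, Nr1d1 gave 0.16 with cohort and 0.41 in cohort 1 alone, and in cohort 2 alone, chosen after the data were seen, Arntl gave 0.40, Npas2 0.43, Per3 −0.17 and Cry1 0.55. Of these effects, those of Arntl, Npas2 and Per3 in C57BL/6J were called over both cohorts, and the others were not. Low counts limit Npas2 most, with 4 reads in the lowest mouse.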
